A study of Bos taurus with 2 samples.

Results

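The 87 entries described here are predicted hairpins of the bovine mammary gland, none of them at the exact coordinates of a known miRNA. Among them are 13 whose hairpin also holds at least 17 bases in a row of a listed mature miRNA. The 87 entries were chosen by the deposited table of candidates predicted from the genome (prefix CN, 505 unique entries) and by measured values. An entry needed at least 10 reads summed over both libraries. Entries at the exact coordinates of a known miRNA (111), entries holding nucleotides 3 to 14 of CN-64-5p with at most 2 mismatches (126) and entries on chromosome 21 between 65.8 and 66.1 Mb (30) were left out, and some entries met more than 1 of these rules. Of 253 entries left, 87 reached the minimum, out of 884 unique miRNAs listed in all. Just inside the minimum stood 9 entries with 10 reads, such as CN-230-3p (6 in lactation, 4 in non-lactation) and CN-221-3p (10 and 0). Just outside stood 8 entries with 9 reads, such as CN-157-3p (6 and 3) and CN-382-3p (9 and 0).

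Small RNA was sequenced from mammary gland tissue of 2 Holstein cows, for neither of which a treatment is named. The lactation library came from a cow 6 years old that had been in milk for 2 months, and the non-lactation library from a cow 4 years old that was neither lactating nor pregnant. With 1 animal per stage, stage, age and animal cannot be told apart, and a smaller number of cells of one type cannot be told apart from less RNA per cell. Alveolar epithelium, muscle, stroma and blood cells have miRNAs known to be enriched in them, and 24 of these, in 5 lists chosen after their values had been seen, were read as markers of the tissue. All 24 were listed in lactation, and all but mir-144-3p in non-lactation. The 5 epithelial miRNAs (mir-200a, mir-200b, mir-200c, mir-141 and mir-429, 3p arms) were all called higher in lactation and summed to 12201 RPM (reads per 1000000 clean reads of a library) against 1903 in non-lactation, and the 4 of striated muscle, 2 of them called higher, to 4480 against 696. The 7 of stroma and smooth muscle summed to 8651 RPM in lactation and 14590 in non-lactation (2 higher, 4 lower), the 5 of leukocytes to 70.6 and 128 (3 lower) and the 3 of red blood cells to 90.8 and 32.5 (2 higher). The part of these differences in the results below was not tested. Each entry is counted by its most abundant sequence, and over all 884 miRNAs these reads summed to 5745961 (lactation) and 7879028 (non-lactation).

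A miRNA is cut from a hairpin precursor, first by Drosha and then by Dicer, which leaves a short duplex of the 5′ and the 3′ arm. One arm is usually loaded into an Argonaute protein and pairs with target mRNAs through its seed, bases 2 to 8, while the other arm is mostly degraded. New miRNA candidates are predicted where small RNA reads map to a place in the genome whose flanks can fold into a hairpin. Fragments of other RNAs, among them tRNAs and copies of interspersed repeats, can map to such places too. The triplet CCA is added to the 3′ end of mature tRNAs by an enzyme and is not encoded in the tRNA genes of mammals.

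The entries fell into 5 groups by sequence and position. Within 3 mismatches of the CN-64-5p motif or of its reverse complement were 20 entries, and 10 of the others ended in CCA, as did CN-223-3p of the first group. A further 8 entries resembled a mature sequence listed for a known or conserved miRNA, 8 lay at most 10 kb from such a miRNA on the same strand, and 41 had none of these features. The sequences below are those on which the results turn, written 5′ to 3′ with the letters the authors list. The first set shows the 10 entries of the CCA group, with this triplet in capitals.
CN-132-5p: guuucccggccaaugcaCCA
CN-300-5p: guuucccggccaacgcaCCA
CN-174-5p: guuuccuggccaaugcaCCA
CN-19-1-5p: guuucccugccaaugcaCCA
CN-46-5p: uucccggcccaugcaCCA
CN-73-3p: guauccgagucacggcaCCA
CN-257-5p: gauccuguucgugacgCCA
CN-56-3p: cauccuguucgugacgCCA
CN-239-3p: gggccccacguugggcgCCA
CN-105-5p: gggucccuguucgggcgCCA

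The second set shows CN-64-5p itself, which is not among the 87 entries, and the 6 entries related to it that had the most reads, with the 12 bases of the motif or of its reverse complement in capitals. CN-64-5p and CN-462-5p carry the motif, and the others its reverse complement.
CN-64-5p: ugAAAAGUUCGUUCggguuuuu
CN-462-5p: uAAAAGUUUGGUUggguuuuu
CN-439-3p: aaaacacGAACAAACUUUUcgg
CN-125-1-3p: agaaucuGGAUGAACUUUUugg
CN-17-3p: aaacccAGAUGAACUUUUuggca
CN-490-3p: aaacccGAACGAACUUUUgggca
CN-201-3p: aaacccGAACGAACUUUUgggc

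The third set shows entries related to listed miRNAs and, after them, the entries without such features that had at least 100 reads, with the seed in capitals.
CN-400-5p: aGCAGCAUuguaccgggcugu
mir-103-3p: aGCAGCAUuguacagggcuau
CN-190-5p: uUCACAGUggcuaaguuaa
mir-27a-3p: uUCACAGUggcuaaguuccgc
CN-303-3p: uGAGGUAGuagguuguggu
let-7b-5p: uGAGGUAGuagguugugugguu
CN-417-3p: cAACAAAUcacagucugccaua
CN-200-3p: cCAAACCAguugugccuguag
CN-242-3p: uAUGUUGGacaacguggauagca
CN-195-3p: uUACUCUGaguaaccuaacug
CN-477-5p: uGUGUGUGucuguaucucc

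Reads of the 87 entries were few, and 72 of the 87 ratios were above 1 (65 with TMM factors, 61 without scaling), beside 314 of the 540 tested miRNAs with at least 10 reads. Of the 72, 17 were listed in the lactation library alone. They summed to 9152 reads in lactation, or 765 RPM, and to 3893 reads in non-lactation, or 244 RPM. The ratio of lactation to non-lactation was 3.14 (exact 95% interval 3.02 to 3.26, counting error only). A single sequence, CN-132-5p, held 45.5% of these reads in lactation (44.5% to 46.5%) and 45.3% in non-lactation (43.7% to 46.9%). Among all CN reads the 87 entries took 9.07% in lactation (8.89% to 9.25%) and 1.92% in non-lactation (1.86% to 1.98%). The entries holding the CN-64-5p motif, which were left out of the 87, took 49.0% and 85.2% of all CN reads, and with them left out of the total the share of the 87 entries was 17.8% (17.5% to 18.1%) in lactation and 13.03% (12.6% to 13.4%) in non-lactation. The median entry had 26 reads over both libraries, and 17 entries had at least 100.

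Fisher's exact test (two-sided, Bonferroni over 883 miRNAs with a value in both libraries, threshold 0.05) compared the reads of each miRNA between these libraries, not between the conditions. It called 27 of the 87 entries higher in lactation (31.0%) and 3 lower (3.45%). Among all 540 tested miRNAs with at least 10 summed reads, 28.5% were higher and 17.8% lower, and among all 883 tested, 17.4% were higher and 10.9% lower. With TMM factors in place of clean reads, 25 of the 87 were higher and 5 lower, beside 23.3% and 21.1% of the 540, and without scaling 21 and 5, beside 20% and 23.1%. The share called higher was thus near that of all miRNAs with as many reads, while the share called lower was below it. The entries had fewer reads than all miRNAs with at least 10 reads, whose median was 101. The median log2 ratio was 1.42 over the 87 entries and 0.30 over the 540, where a listed 0 was set to 3 reads. An entry that reached the minimum through 1 library alone had to differ, so these counts are a description.

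**Figure D1:**
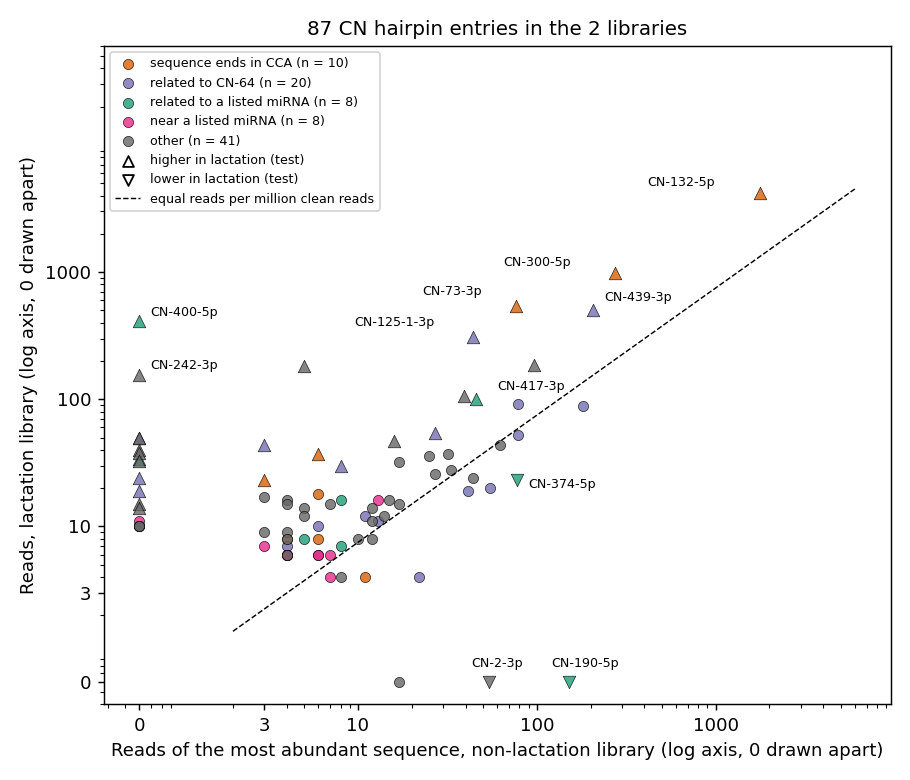
Reads of the 87 entries, each counted by its most abundant sequence, with non-lactation on the x axis and lactation on the y axis (both log axes), coloured by sequence group, with triangles for entries called by Fisher's exact test and zeros drawn apart. CN-132-5p stands alone at 4164 and 1764 reads, 17 entries lie on the left edge at 0 in non-lactation, and 3 lie on the lower edge at 0 in lactation.

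The sequences ending in CCA held most of the reads of the 87 entries, and nearly all of the 10 were higher in lactation by value. They summed to 5793 reads (484 RPM) in lactation and 2156 (135 RPM) in non-lactation, a ratio of 3.59 (3.41 to 3.77). That is 63.3% of the reads of the 87 entries in lactation and 55.4% in non-lactation. Of the 10, 5 were called higher and none lower, against 28.5% higher and 17.8% lower among miRNAs with at least 10 reads, and the median log2 ratio was 1.83. Sequences ending in CCA were 11 of the 87 entries (12.6%), 2 of the 242 known miRNAs with at least 10 reads (0.826%) and 1 of the 78 CN entries at known coordinates with as many reads (1.28%). They were 0 of the 66 holding the CN-64-5p motif, but 8 of the 96 conserved miRNAs, counted without a minimum of reads. Over all 541 miRNAs with at least 10 reads they were 19 (3.51%).

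CN-132-5p had 4164 reads in lactation and 1764 in non-lactation, a ratio of 3.15 (2.98 to 3.33). CN-300-5p, which differs from it by the single change U14C counted from the 5′ end, had 982 and 275 reads and a ratio of 4.77 (4.16 to 5.47, Bonferroni-adjusted p of Fisher's exact test 9.21e-141). CN-73-3p, whose sequence was not joined to any other entry, had 543 and 77 reads and a ratio of 9.41 (7.40 to 12.1, adjusted p = 1.29e-116 by Fisher's exact test). All 3 stood above their non-lactation value by far more than counting error allows, but no further animal of either stage was sequenced. The paper also ran a microarray on RNA pooled from 3 cows per stage, but its values were not used here.

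The less abundant entries of this group were mixed. CN-257-5p had 37 reads in lactation and 6 in non-lactation (ratio 8.23, 3.44 to 23.9), and CN-46-5p had 23 and 3 (ratio 10.2, 3.09 to 53.2). Both were called higher, though CN-46-5p was not without scaling, and with the reads of all isomiRs its ratio was 22.7 (7.34 to 114). CN-239-3p had 18 and 6 reads, CN-56-3p 8 and 6, CN-174-5p 8 and 4, and CN-105-5p 6 and 4, none of which passed the test. With the reads of all isomiRs, 23 and 4 for CN-174-5p and 27 and 4 for CN-105-5p, the last 2 were called higher (ratios 7.67, 2.62 to 30.5, and 9.01, 3.14 to 35.4). CN-19-1-5p alone had fewer reads in lactation, 4 against 11, and did not pass either.

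The 10 listed sequences were not 10 unrelated ones. CN-132-5p, CN-300-5p, CN-174-5p, CN-19-1-5p and CN-46-5p were joined by differences of at most 1 base, and together they held 5181 reads in lactation and 2057 in non-lactation (ratio 3.36, 3.19 to 3.54). Their hairpins were listed on chromosomes 10 and 19 (at 2 places, on opposite strands) and on 2 unplaced contigs (BTA 4.0). The hairpins of CN-46-5p and CN-300-5p shared a stretch of 33 bases, and those of CN-132-5p and CN-300-5p one of 27, in both cases beyond the mature sequence. CN-257-5p and CN-56-3p differed by C1G from CN-56-3p to CN-257-5p. CN-105-5p shared 19 bases in a row with PC-1274a-5p, a conserved entry with 197 and 165 reads. In all 10 cases the genomic hairpin itself held the CCA, and in 9 of them it went on beyond it. Entries were listed only where their reads mapped to the genome, so a CCA in the hairpin was largely set by the listing. Reads that matched tRNA had been removed by the authors before mapping, and a match of these sequences to tRNA was not tested. The hairpin of CN-132-5p (93 nt, chr10:18763640-18763732, plus strand) is shown with the mature part in capitals.
CN-132 hairpin: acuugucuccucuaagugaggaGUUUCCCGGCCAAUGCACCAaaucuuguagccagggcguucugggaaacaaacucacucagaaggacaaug

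The 20 entries related to CN-64-5p were the second group by reads, and they went both ways. They summed to 1368 reads (114 RPM) in lactation and 784 (49.1 RPM) in non-lactation, a ratio of 2.33 (2.13 to 2.55). Without CN-439-3p and CN-125-1-3p the ratio was 1.38 (1.22 to 1.56). The rule had left out entries holding the motif on their own strand within 2 mismatches, and 66 such entries with at least 10 reads had a ratio of 0.381 (0.377 to 0.385). That sum rests on CN-64-5p, without which the other 65 had a ratio of 0.659 (0.621 to 0.698). Of the 66, 12 were called higher and 11 lower, and their median log2 ratio was -0.34. What stayed were 15 entries with the reverse complement and 5 with 3 mismatches to the motif. The reverse complement entries summed to a ratio of 2.32 (2.11 to 2.55) and the other 5 to 2.43 (1.88 to 3.16). Of the 20 hairpins, 19 held the motif or its reverse complement within 2 mismatches, as did none of the other 67. The group was set by the mature sequence, a part of the hairpin, so these counts follow in part from the grouping.

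Of these 20 entries, 8 were called higher and none lower, beside 28.5% and 17.8% of miRNAs with at least 10 reads, and the median log2 ratio was 1.19. CN-439-3p had 506 reads in lactation and 207 in non-lactation (ratio 3.26, 2.77 to 3.85). CN-125-1-3p had 310 and 44 (ratio 9.40, 6.84 to 13.2), but with the reads of all isomiRs, 365 and 100, the ratio was 4.87 (3.89 to 6.14). CN-449-3p, which differs from CN-125-1-3p by G22A, had 44 and 3 (ratio 19.6, 6.27 to 98.5). CN-309-3p, a shorter form of CN-439-3p, had 30 and 8 reads (ratio 5.005, 2.24 to 12.6). All 4 were called higher, CN-309-3p with clean reads as totals but not with TMM, DESeq2 or no scaling.

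Another 3 called entries of this group were listed in the lactation library alone. CN-148-5p had 50 reads, 22.2-fold higher, CN-223-3p, which also ends in CCA, 24 reads, 10.7-fold, and CN-97-3p 19 reads, 8.45-fold higher, each against a floor of 3 reads. Their exact 95% lower limits were 17.4, 8.03 and 6.23. CN-292-5p, which CN-148-5p holds whole, had 10 reads in lactation and 0 in non-lactation and did not pass the test.

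CN-201-3p and CN-490-3p, listed on chromosomes 24 and 1, were near-identical in sequence but differed in call, and the cause was not tested. CN-490-3p is CN-201-3p with 1 more base at the 3′ end. CN-201-3p had 54 reads in lactation and 27 in non-lactation and was called higher (ratio 2.67, 1.65 to 4.41, adjusted p = 0.0206 by Fisher's exact test), whereas CN-490-3p had 52 and 79 (ratio 0.878, 0.607 to 1.26). CN-201-3p was not called with TMM, DESeq2 or no scaling, and with the reads of all isomiRs its log2 ratio was -0.69 in place of 1.42. Summed, both entries held 106 reads in each library. The entries that were lower by value, CN-17-3p (88 and 181 reads), CN-482-3p (20 and 55), CN-133-3p (19 and 41) and CN-54-3p (4 and 22), did not pass the test, but CN-17-3p did with TMM, DESeq2 or no scaling and CN-54-3p with the reads of all isomiRs. CN-482-3p was joined with CN-67-3p (11 and 13) and CN-155-3p (10 and 6), and the 3 held 41 reads in lactation and 74 in non-lactation (ratio 0.739, 0.492 to 1.10).

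**Figure D2:**
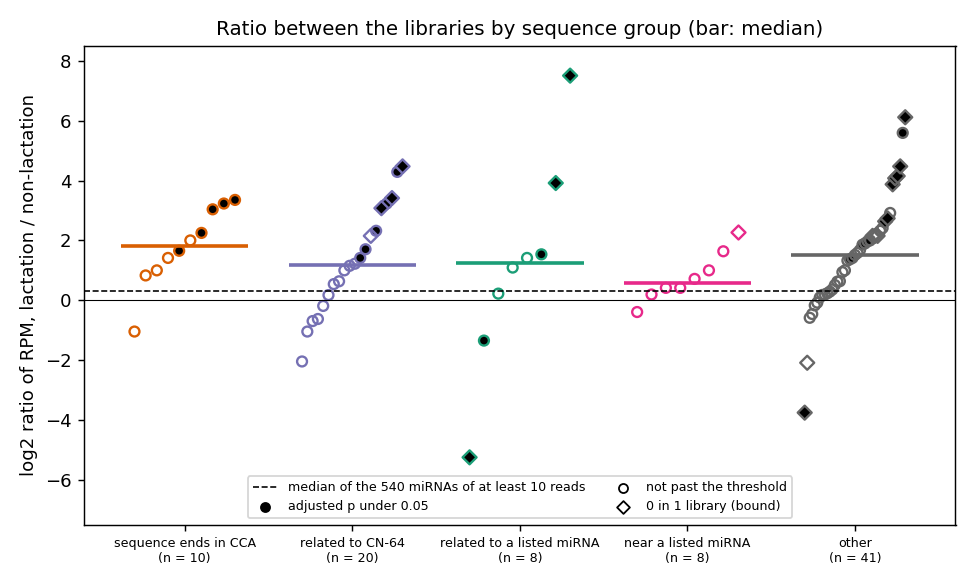
Ratios of RPM (log2, lactation divided by non-lactation) of the 87 entries by sequence group, with filled points for entries past the adjusted threshold of 0.05, diamonds for bounds of entries at 0 in 1 library, coloured bars for group medians and a dashed line for the median of 540 miRNAs with at least 10 reads (0.30). The group medians run from 0.57 near a listed miRNA to 1.83 for sequences ending in CCA, and both directions occur in every group.

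Of the 8 relatives of listed miRNAs, 3 were called higher and 2 lower, beside 28.5% and 17.8% of miRNAs with at least 10 reads. CN-400-5p had the highest ratio bound of the 87 entries. It had 409 reads in lactation and 0 in non-lactation, at least 182-fold higher against a floor of 3 reads. CN-400-5p differs from mir-103-3p and mir-107-3p, which are listed with 1 sequence and act in metabolic regulation, by A14C and A20G counted from the 5′ end, and it shares their seed. CN-190-5p was the reverse, with 0 reads in lactation and 152 in non-lactation, at least 37.96-fold lower. It shares 17 bases in a row with the sequence shown for mir-27a-3p, a miRNA known from the control of fat cell formation, and the same seed. Of the listed miRNAs, mir-103-3p had 180907 and 159117 reads and mir-27a-3p 9243 and 9440, while mir-107-3p was listed at 0 in lactation and 115244 in non-lactation under the sequence of mir-103-3p. Each of these CN sequences also differed by 1 base from its own listed hairpin, G18C (hairpin to mature) for CN-400-5p and U11C for CN-190-5p.

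Among the let-7 relatives, which carry the let-7 seed, CN-303-3p had 100 reads in lactation and 46 in non-lactation (ratio 2.90, 2.03 to 4.21, higher) and CN-226-5p 16 and 8 (not called). With the reads of all isomiRs, 710 and 615, the ratio of CN-303-3p was 1.54 (1.38 to 1.72, higher). CN-303-3p and CN-226-5p shared 17 bases with let-7b-5p and 15 with let-7i-5p respectively, whose own ratios were 1.86 and 0.762. CN-374-5p has the same 22 bases as PC-1247-5p. It had 23 and 78 reads, 2.54-fold lower in lactation (1.58 to 4.24, adjusted p = 0.0271 by Fisher's exact test), and PC-1247-5p had 30 and 90. CN-318-5p (8 and 5 reads), within 1 mismatch of PC-378-3p, and CN-343-5p (7 and 8), within 1 mismatch of mir-26a-5p, did not pass.

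CN-441-5p shared 15 bases with PC-3168-5p and had 34 reads in lactation and 0 in non-lactation, at least 15.1-fold higher. PC-3168-5p was likewise listed in the lactation library alone, with 10 reads. CN-225-3p, in the last group, shares the seed of CN-441-5p and had 36 and 25 reads (not called). Laid on its listed hairpin without gaps, its mature sequence had 12 mismatches at the best place. Small RNA kits ligate adaptors of fixed sequence to the RNA, and no entry was compared with them here, since the files used do not give these sequences.
CN-441-5p: cAGAGUUCuacaguccga
CN-225-3p: uAGAGUUCuacagucugacgauc
PC-3168-5p: aGUUCUACaguccgaca

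Near listed miRNAs, 8 entries at 7 hairpins had few reads, between 10 and 29 in sum. None was called, beside 28.5% higher and 17.8% lower among all miRNAs with at least 10 reads. These 8 entries summed to 62 reads in lactation and 46 in non-lactation (ratio 1.80, 1.21 to 2.69), with a median log2 ratio of 0.57. CN-152-5p (16 and 13 reads, chromosome X) lay 1845 bases from mir-224-5p, CN-312-5p (7 and 3) 175 bases from mir-296-3p, and CN-295-5p (11 and 0) 408 bases from mir-362-3p on chromosome X. CN-445-5p (6 and 6) lay 312 bases from mir-29a-3p, and CN-465-3p (6 and 6) 51 bases from mir-15b-5p. Both arms of the CN-82 hairpin, 9548 bases from mir-454-3p on chromosome 19, were listed, CN-82-5p with 4 and 7 reads and CN-82-3p with 6 and 4. CN-82-3p has the seed of mir-454-3p, mir-130a-3p and mir-130b-3p. CN-50-3p (6 and 7) has the coordinates of the conserved PC-503-5p, which the rule on known miRNAs did not cover.

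In 13 of the 87 entries the listed hairpin also held, outside the entry's own sequence, at least 17 bases in a row of a known or conserved mature miRNA. This feature was looked for after the values had been seen, and 4 of the 13 are from the group near listed miRNAs and 9 from the last group. The partners were mir-7-5p, mir-16a-5p, mir-26a-5p, mir-29b-3p, mir-103-3p, mir-125b-5p, mir-135a-5p, mir-181a-5p, mir-181b-5p, mir-218-5p, mir-365-3p, mir-500-3p and PC-503-5p. Apart from CN-50-3p, these hairpins did not overlap a listed row of a known or conserved miRNA. All 13 mature sequences matched their hairpin without a mismatch, compared with 51 of the 87 entries. In both libraries each of the 13 had fewer reads than its partner, whose sequence can also arise from other loci.

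CN-417-3p was the most abundant of them. Its hairpin (109 nt, chr8:81412517-81412625, minus strand) holds mir-7-5p, a miRNA of neuroendocrine tissues, in the 5′ arm and CN-417-3p in the 3′ arm, both in capitals.
CN-417 hairpin: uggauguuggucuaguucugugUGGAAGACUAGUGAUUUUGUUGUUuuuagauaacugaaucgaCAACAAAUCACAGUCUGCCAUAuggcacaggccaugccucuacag
CN-417-3p had 186 reads in lactation and 96 in non-lactation (ratio 2.59, 2.01 to 3.34, adjusted p = 6.30e-12 by Fisher's exact test), and mir-7-5p had 192 and 199 (ratio 1.29, 1.05 to 1.58, not called). The 3p share of the reads of both arms was 49.2% (44.1% to 54.4%) in lactation and 32.5% (27.2% to 38.2%) in non-lactation.

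The other entries of this kind were rare and were not called. In its hairpin CN-445-5p ends directly before mir-29b-3p, with 23.5% of its bases paired, and was not shown to be an arm. CN-141-3p had 26 and 27 reads beside 22205 and 87038 of mir-125b-5p, a miRNA of cell differentiation, so that its ratio of 1.29 (0.721 to 2.29) stood beside 0.340 (0.335 to 0.346) for the partner. With the reads of all isomiRs, 84 and 162, the ratio of CN-141-3p was 0.692 (0.525 to 0.906). CN-127-5p had 28 and 33 reads beside 2093 and 1084 of mir-365-3p, with ratios of 1.13 (0.659 to 1.93) and 2.58 (2.39 to 2.78). CN-403-3p had 24 and 44 reads beside 14030 and 29294 of mir-181a-5p, with ratios of 0.728 (0.423 to 1.22) and 0.639 (0.626 to 0.652). CN-402-3p, whose hairpin lies 63 bases from that of CN-403-3p on chromosome 16, had 12 and 5 reads beside 909 and 1752 of mir-181b-5p. Over the 12 pairs with reads in both libraries, the interval of the entry and that of its partner did not overlap in 5, which were CN-417-3p, CN-127-5p, CN-141-3p, CN-319-3p and CN-402-3p.

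**Figure D3:**
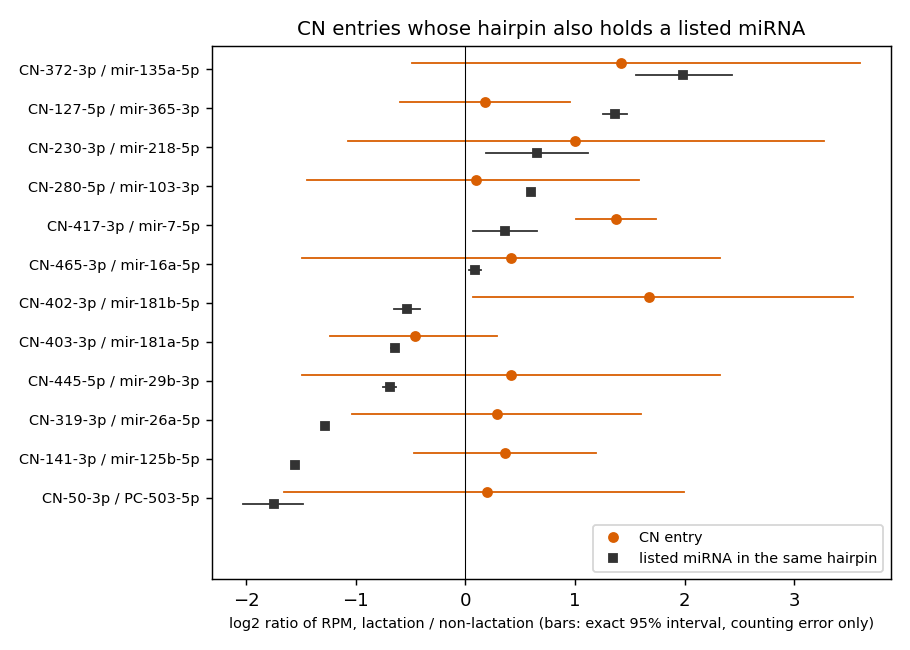
Ratios of RPM (log2, lactation divided by non-lactation) of 12 CN entries (circles) and of a listed miRNA in the same hairpin (squares). Each hairpin holds at least 17 bases in a row of that miRNA, and bars give the exact 95% interval of counting error. The hairpin of CN-465-3p holds 20 of the 22 bases of mir-16a-5p. CN-417-3p lies to the right of mir-7-5p, CN-141-3p far to the right of mir-125b-5p and CN-127-5p to the left of mir-365-3p, while most other entries have wide intervals.

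The last group held 41 entries, of which 11 were called higher and 1 lower, beside 28.5% and 17.8% of miRNAs with at least 10 reads, with a median log2 ratio of 1.52. Leaving aside the 9 hairpins that hold a listed miRNA, 10 of 32 were higher and 1 lower, with a median of 1.94. The 32 summed to 1023 reads in lactation and 375 in non-lactation (ratio 3.64, 3.23 to 4.11). No function is known from the labels for any of them.

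The hairpin of CN-200 (71 nt, chr26:33243054-33243124, plus strand) gave reads of both arms, which are in capitals.
CN-200 hairpin: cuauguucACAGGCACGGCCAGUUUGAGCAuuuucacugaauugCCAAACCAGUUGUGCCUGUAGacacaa
CN-200-3p had 181 reads in lactation and 5 in non-lactation (ratio 48.3, 20.3 to 151). CN-200-5p had 40 and 0, 17.8-fold higher against a floor of 3 reads (exact 95% lower limit 13.8). Both arms were called higher, and with the reads of all isomiRs, 434 and 5, the ratio of CN-200-3p was 116 (49.3 to 359). CN-200 and CN-82 were the 2 hairpins with both arms among the 87 entries.

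CN-242-3p had 156 reads in lactation and 0 in non-lactation, at least 69.4-fold higher, and its mature sequence matched its hairpin on chromosome 7 without a mismatch. CN-179-3p (50 and 0 reads), CN-458-5p (38 and 0), CN-392-5p (33 and 0) and CN-177-5p (14 and 0) were also listed in lactation alone and called higher, CN-177-5p not without scaling. CN-392-5p is 16 nt long and CN-179-3p 17 nt, the shortest of the entries together with CN-445-5p at 17 nt. CN-1-5p had 47 and 16 reads (ratio 3.92, 2.18 to 7.41, higher, but not called without scaling). CN-477-5p, the fifth entry of this group with at least 100 reads, had 44 and 62 (ratio 0.947, 0.629 to 1.42, not called) and differed from its hairpin by C14A.

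CN-195-3p and CN-194-3p lie on opposite strands of chromosome 26 at overlapping hairpins (31723011 to 31723098 and 31723003 to 31723106). From CN-194-3p to CN-195-3p the sequences differ by G12A. CN-195-3p had 106 reads in lactation and 39 in non-lactation (ratio 3.63, 2.49 to 5.38, higher), and CN-194-3p had 15 and 4 (ratio 5.005, 1.59 to 20.7, not called). With the reads of all isomiRs the ratios were 2.10 (1.76 to 2.51) for CN-195-3p and 7.67 (2.62 to 30.5) for CN-194-3p, both called higher. CN-194-3p differed from its hairpin by G13A, and CN-195-3p matched its own.

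CN-2-3p and CN-488-3p were listed in opposite libraries although their sequences differ by 1 base at the 5′ end and their 58 nt hairpins are identical. CN-2-3p had 0 reads in lactation and 54 in non-lactation (at least 13.5-fold lower, called), and CN-488-3p had 15 and 0 (at least 6.67-fold higher, called, but not without scaling). With the reads of both summed, 15 and 54, the ratio was 0.371 (0.194 to 0.667). Another pair went in 1 direction by value. CN-61-3p had 0 and 17 reads and was called lower with TMM, DESeq2 or no scaling and with all isomiR reads. It was not called with clean reads as totals. CN-61-3p holds CN-131-1-3p, which had 4 and 8 reads (ratio 0.667, 0.147 to 2.49, not called). Their hairpins, on chromosomes 25 and 29, share 26 bases.
CN-2-3p: cUGUGUGGacguacauacgcuc
CN-488-3p: uCUGUGUGgacguacauacgcuc

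Over all groups, 20 of the 87 entries were listed in 1 library alone, 17 in lactation (19.5%) and 3 in non-lactation (3.45%). Among all miRNAs with at least 10 reads, 7.02% were listed in lactation alone and 2.22% in non-lactation alone. For the 66 CN entries holding the CN-64-5p motif, with a median of 24 reads, these shares were 15.2% and 6.06%. For the 78 at known coordinates, with a median of 45.5 reads, they were 5.13% and 1.28%. Of the 17, 12 were called higher, while CN-295-5p, CN-221-3p, CN-292-5p, CN-485-3p and CN-78-3p, with 10 or 11 reads each, did not pass the test, CN-295-5p doing so with the reads of all isomiRs. With near-identical entries joined, 72 sequences remained and 15 of them were listed in 1 library alone. In the reads of all isomiRs the same 20 were listed at 0, which does not show that near-identical reads were absent. CN-488-3p had 28 and 0 such reads, and CN-2-3p, which differs by 1 end base, had 0 and 135.

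The listed hairpins differed in how well they held their own mature sequence. In 51 of 87 entries the mature sequence matched its hairpin (58.6%), in 35 it differed by 1 base and CN-225-3p had no such place in its hairpin. Among the 78 CN entries at known coordinates with at least 10 reads, 76 matched (97.4%), and among the 66 holding the CN-64-5p motif, 30 did (45.5%). By group, the match was complete in 8 of 8 entries near listed miRNAs, 29 of 41 of the last group, 8 of 20 related to CN-64-5p, 4 of 10 ending in CCA and 2 of 8 relatives. Of the 35 differences, U to C (6, hairpin to mature) and A to G (5) were the most frequent, and 2 lay in the last 2 bases.

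Folded with RNAfold, the hairpins of the CCA group had a median minimum free energy of -23.9 kcal/mol and those of the relatives -24.4, compared with -37.0 for CN entries at known coordinates. The medians were -39.0 for entries related to CN-64-5p, -33.4 near listed miRNAs and -32.4 in the last group. Divided by length, the median of the entries related to CN-64-5p was 0.033 kcal/mol per nt above that of CN entries at known coordinates. In the median 73.0% of the mature bases were paired in the CCA group, 74.9% in the relatives, 86.7% in entries related to CN-64-5p and 85.7% at known coordinates. CN-190-5p had the highest energy of all, -12.0 kcal/mol over 62 nt.

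**Figure D4:**
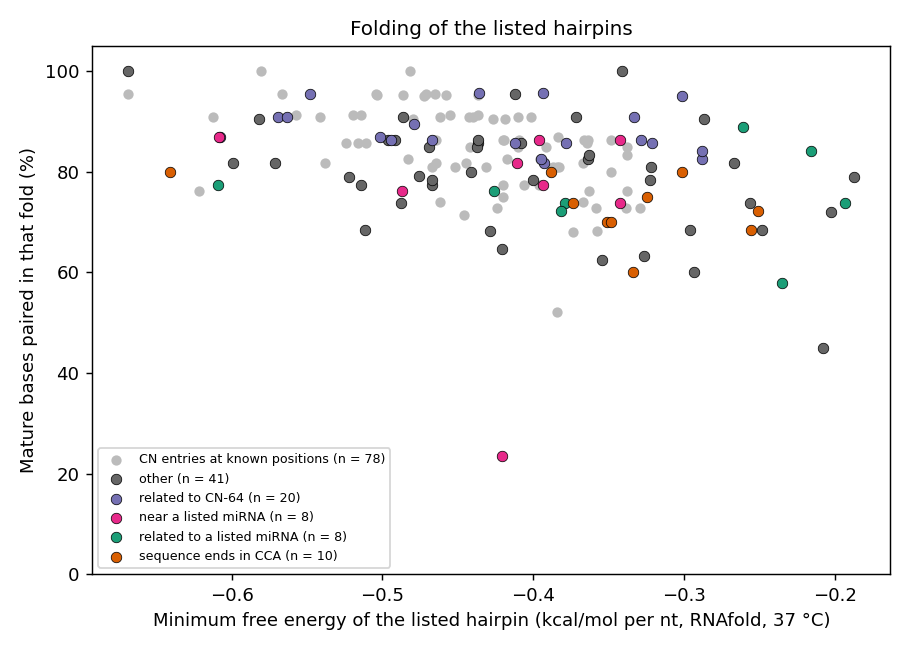
Minimum free energy per nucleotide of the listed hairpin (x) and the percentage of mature bases paired in that fold (y), for the 87 entries by sequence group and for 78 CN entries at known coordinates (grey). The CCA entries and relatives have fewer paired bases than the grey points in the median (73.0% and 74.9% compared with 85.7%), and CN-445-5p stands alone at 23.5% of bases paired.

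The mature sequences also differed from known miRNAs in their ends. Of the 87 entries, 25 were 22 nt long (28.7%), compared with 52.9% of the 242 known miRNAs with at least 10 reads, and lengths ran from 16 to 25 nt. This length was found in 43.6% of the 78 CN entries at known coordinates and in 28.8% of the 66 holding the CN-64-5p motif. A first base U, which Argonaute proteins are known to favour, was found in 20 of 87 (23.0%) and in 48.3% of the known miRNAs. It was found in 17.9% of the 78 CN entries at known coordinates and in 33.3% of the 66 holding the CN-64-5p motif. In the CCA group 1 of 10 had it, and 1 of 20 of those related to CN-64-5p. The 87 entries carried 76 seeds. A seed of a known or conserved miRNA was found in 10 entries, among them CN-400-5p (mir-103 and mir-107), CN-190-5p (mir-27), CN-303-3p and CN-226-5p (let-7) and CN-82-3p (mir-454 and mir-130).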

How the data were processed

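Per the labels and the study's methods, the authors made an Illumina small RNA library from each gland, removed adaptors, low-quality reads and reads matching mRNA, rRNA, tRNA, snRNA, snoRNA, Rfam and Repbase, and used ACGT-miR to map what was left to miRBase and to BTA 4.0, a build of the bovine genome. The labels name Trizol for RNA extraction and the methods a miRNeasy kit. The deposited values are unnormalized read counts, given per library for the dominant sequence of a miRNA and for its isomiRs together, with counts of isomiR kinds. In the CN table these last 2 pairs of columns were read in the order the values allow.

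The members and groups were chosen with earlier results of these data known. RPM used the study's clean reads as totals. Each ratio has an exact conditional (Clopper-Pearson) 95% interval, which covers counting error only because PCR copies are not independent molecules, so that entries with more reads have narrower intervals. A listed 0 was set to 3 reads and gave a bound, which leaves out the counting error of the other library. Fisher's exact test with Bonferroni adjustment ran over all 883 miRNAs, and was checked on simulated counts. With 1 library per condition no dispersion can be fitted, so edgeR 4.0.16 and DESeq2 1.42.0 (R 4.3.3) gave scaling factors alone.

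The sequence groups were set in the order CN-64-5p motif (3 mismatches), CCA end, relative (at least 15 shared bases in a row, or at most 2 mismatches over at least 18), neighbour (at most 10 kb) and other. Entries were joined where 1 held the other or they differed by at most 1 base over at least 17. Hairpins were folded with ViennaRNA 2.7.2 at 37 °C, in Python 3.11.15 with scipy 1.17.1. Members named are those with at least 100 reads, at 0 in 1 library, in the CCA, relative and neighbour groups, called in the CN-64 group, in sequence pairs or both-arm hairpins, and near the read minimum. The hairpins that hold a listed miRNA, CN-1-5p, CN-133-3p, CN-54-3p and CN-225-3p, and the marker miRNAs were named after their values were seen. Comparison with RefSeq miRNAs and with genes at these positions was not analysed here, as no sequence of this build was used.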

Additional observations from a re-analysis of the deposited data

How the results depend on the processing

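The ratio of all entries, 3.14, was 2.62 with TMM factors, 2.58 with DESeq2 size factors and 2.35 without scaling, and 2.58 without the CCA group. For the CCA group, 3.59 became 2.99, 2.95 and 2.69 under these scalings, 4.23 with all isomiR reads and 8.25 without the near-identical entries of CN-132-5p. For the entries related to CN-64-5p, 2.33 became 1.94, 1.91 and 1.74, 2.08 with all isomiR reads, and 1.38 without CN-439-3p and CN-125-1-3p. The median log2 ratio of 1.42 was 1.15 with TMM, 1.13 with DESeq2 and 1.00 without scaling, while that of all miRNAs with at least 10 reads went from 0.30 to 0.04, 0.02 and -0.11. The 27 entries called higher and 3 lower became 25 and 5 with TMM and with DESeq2, 21 and 5 without scaling, 35 and 5 with all isomiR reads, and 42 and 7 (49 in all) with Benjamini-Hochberg adjustment. Without the CCA and CN-64 groups 14 were higher (17 calls in all), among fewer entries. The share called higher was 50% in the CCA group and 40% in the CN-64 group. It was 37.5% in the relatives, 0% near listed miRNAs and 26.8% in the last group. Among all miRNAs with at least 10 reads it was 28.5%. Joining near-identical entries, leaving out hairpins with a listed miRNA and leaving out the CCA group were chosen after seeing the data. CN-201-3p reversed with all isomiR reads (-0.69). CN-374-5p was not called with the listed reads as totals. CN-201-3p and CN-309-3p were not called with TMM, DESeq2 or no scaling, under which CN-17-3p and CN-61-3p were called lower. CN-1-5p, CN-46-5p, CN-177-5p and CN-488-3p were not called without scaling. With all isomiR reads 11 more entries were called, and the ratio of 21 of 66 entries with reads in both libraries moved by over 1.5 times, 13 down and 8 up. The 87 members became 54 with at least 20 reads, 17 with at least 100, 31 with at least 10 in each library and 253 without a minimum. The median hairpin energy of the entries related to CN-64-5p was 1.95 kcal/mol below that of CN entries at known coordinates, but 0.033 kcal/mol per nt above it when divided by length. The cause of these changes was not tested beyond the construction of each setting. Depth limits entries of 10 or 11 reads, whose ratios span several-fold. No paired analysis was possible because each condition has 1 library. Comparison with annotated miRNAs was not run.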
